A study of Mus musculus with 15 samples.

Results

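The 5 genes described here carry the Hedgehog signal inside the cell, between the receptor Ptch1 and the target genes: Smo, Sufu, Kif7, Gli2 and Gli3. They were taken by name, by matching each NCBI gene identifier in the count files to its mouse symbol, and they are 5 of the 36528 genes listed. All 5 passed the filter on low counts that left 17282 genes for testing. Polyadenylated RNA was sequenced from nests of basal cell carcinoma, a skin tumour, cut out by laser from fresh frozen mouse skin. The groups were nests of mice given vismodegib for 28 days, untreated nests labelled Ki67- and untreated nests labelled Ki67+, with 5 libraries each. All mice carried K14Cre-ER, Ptch1fl/fl, p53fl/fl and Lgr5GFP, so the untreated nests also lack normal Ptch1 control wherever the Cre acted. The Cre is driven by the keratin 14 promoter, which is active in basal keratinocytes, and stroma and immune cells around the nests keep both genes. Vismodegib nests have no Ki67 label.

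In the absence of ligand, Ptch1 keeps Smo, a seven-pass membrane protein, inactive. The zinc finger factors Gli2 and Gli3 are then held by Sufu, phosphorylated by protein kinase A and cut into repressor forms. When Ptch1 is lost or bound by ligand, Smo moves into the primary cilium, the kinesin Kif7 and Sufu release the Gli proteins at the cilium tip, and full-length Gli2 and Gli3 switch on targets such as Gli1, Ptch1 and Hhip. Loss of Ptch1 in keratinocytes drives basal cell carcinoma, and vismodegib binds and inhibits Smo. Messenger RNA levels, which were measured here, do not show Gli processing or the place of any of these proteins in the cell.

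Libraries held 6413055 to 10328822 counts in the vismodegib group, 4887381 to 7158143 in the Ki67- group and 4929869 to 8359195 in the Ki67+ group. The labels name no animal, sequencing run or date. If several nests of 1 group came from the same animal, the p-values given here understate the error, and part of the spread they measure may be technical. Accession numbers of the Ki67- libraries start later than those of the other groups, and a batch of their own cannot be told apart from that group. Xist was above the Y-linked Ddx3y in 3 vismodegib libraries, 1 Ki67- library and 1 Ki67+ library. Basal keratinocyte markers were present in every library, with a summed level of 9720 to 13350 CPM, counts scaled to the TMM-adjusted library size, in vismodegib nests, 5243 to 7670 CPM in Ki67- nests and 6183 to 7214 CPM in Ki67+ nests. Mki67, which encodes the Ki67 antigen, averaged 683 ± 142 CPM in vismodegib nests, 361 ± 74.5 CPM in Ki67- nests and 776 ± 228 CPM in Ki67+ nests (SD, n = 5 each), with a log2 fold change of −1.10 for Ki67- over Ki67+ nests (edgeR quasi-likelihood test, Benjamini-Hochberg adjusted p = 0.0291). That call was lost in each run in which edgeR called 0 genes between these groups: with only the libraries of those groups in the fit, in libraries with Xist below Ddx3y, and without Ki67- library 3, 4 or 5 or Ki67+ library 4.

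The genes lie on 5 chromosomes of the GRCm38 build, by the RefSeq annotation. Smo (gene 319757) spans chr6:29735497-29761366 on the plus strand, Sufu (24069) chr19:46396896-46488804 on the plus strand and Gli3 (14634) chr13:15463723-15730026 on the plus strand. Gli2 (14633) spans chr1:118834061-119054405 and Kif7 (16576) chr7:79698098-79715772, both on the minus strand. Whether reads were counted by strand is not given in the sources used here, so reads from genes that overlap on opposite strands cannot be told apart. Exons of Kif7 share 877 bases, 19.1% of its exonic length, with the antisense transcript 9330171B17Rik, which did not pass the filter on low counts, and 51 bases with Ticrr. Exons of Gli3 share 188 bases, 1.96% of its exonic length, with the antisense transcript Gm6556.

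Gli2 and Kif7 are the members whose mean level was furthest below untreated nests after vismodegib, and their promoters are shown for that reason. Each sequence is the 250 bases before the start that RefSeq's GRCm38 promoter table uses, read 5′ to 3′ along the gene's own strand, at chr1:119053620-119053869 for Gli2 and chr7:79715708-79715957 for Kif7, both on the minus strand. The Gli2 window lies wholly inside the gene span given above and the Kif7 window overlaps the end of its span, because the table's start lies downstream of the outermost 5′ end that the annotation gives for each gene. Capitals mark the core of the Gli binding consensus, ACCACCC, or its other strand, GGGTGGT.
Gli2: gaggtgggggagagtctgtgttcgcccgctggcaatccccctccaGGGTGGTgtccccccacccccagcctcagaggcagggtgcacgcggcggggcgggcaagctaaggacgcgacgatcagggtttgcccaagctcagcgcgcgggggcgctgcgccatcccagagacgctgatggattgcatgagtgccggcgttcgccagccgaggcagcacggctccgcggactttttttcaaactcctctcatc
Kif7: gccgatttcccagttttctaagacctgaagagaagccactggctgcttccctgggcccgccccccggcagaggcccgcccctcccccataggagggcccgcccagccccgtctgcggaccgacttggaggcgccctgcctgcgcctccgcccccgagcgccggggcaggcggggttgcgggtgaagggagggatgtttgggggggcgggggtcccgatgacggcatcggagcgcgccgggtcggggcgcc
The Gli2 window held 1 match to the core, whose first base lay 205 bases before the start, and the windows of Kif7, Smo, Sufu and Gli3 held none. The core, which is part of the full consensus GACCACCCA, was found on either strand in 3.92% of 32851 promoter windows of this length, and the full consensus in 0.225%, in none of the 5 genes. The windows were 74.4% G or C for Kif7, 72.8% for Gli3, 68.4% for Smo, 67.2% for Gli2 and 54.0% for Sufu, against a median of 52.4% over all windows. A match describes letters in a window, not binding.

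After vismodegib, messenger RNA of 4 of the 5 transducers was lower than in untreated nests, and the estimated falls differed in size. Tests of pairs of members, given below, told 4 of 10 pairs apart against Ki67+ nests and 1 of 10 against Ki67- nests. Kif7 fell to 0.235 of its level in Ki67+ nests and Gli2 to 0.41, while Gli3 fell to 0.697 and Sufu to 0.715. Smo, the drug's target, was at 0.785 of its Ki67+ level and did not pass the test. Against Ki67- nests the same 4 genes fell, to 0.306 for Kif7, 0.314 for Gli2, 0.582 for Gli3 and 0.674 for Sufu, and Smo was at 0.755 without passing the test. Of all genes tested, 13.4% were lower at an adjusted p under 0.05 in vismodegib than in Ki67+ nests, and 16.5% were lower than in Ki67- nests. Both comparisons share the vismodegib libraries and are not independent of each other. In nests cut from tissue, fewer cells that express a gene and less of its RNA per cell cannot be told apart.

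**Figure D1:**
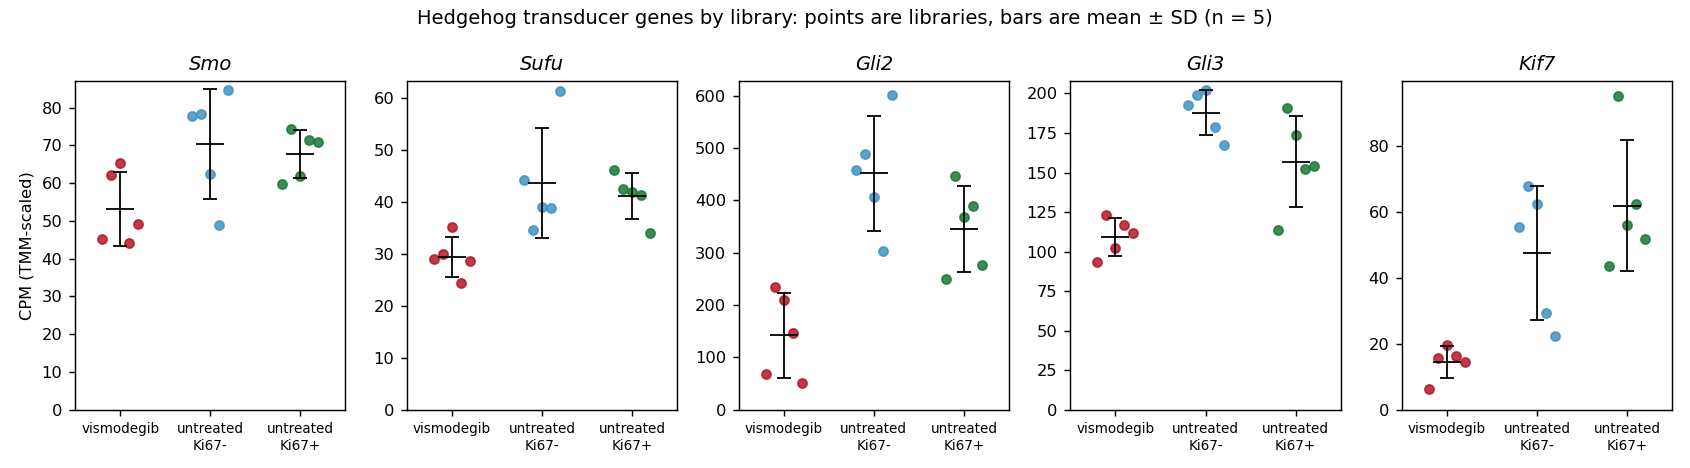
CPM of the 5 transducer genes in each library (points, linear axes that start at 0) with the mean and SD of each group of 5 (bars). Vismodegib libraries lie below all untreated libraries for Gli2 and Kif7, while Smo overlaps.

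Smo, which encodes the transducer that vismodegib binds, reached 45.2, 62.1, 65.2, 44.1 and 49.1 CPM in vismodegib libraries 1 to 5, against 77.8, 78.3, 62.4, 48.9 and 84.7 CPM in Ki67- libraries and 59.9, 74.3, 62.0, 71.5 and 70.8 CPM in Ki67+ libraries. Vismodegib libraries 2 and 3 lay within the range of both untreated groups, and the groups overlapped. The log2 fold change was −0.35 against Ki67+ nests (SE 0.163, 95% interval −0.70 to 0.01, edgeR quasi-likelihood adjusted p = 0.127) and −0.41 against Ki67- nests (SE 0.163, 95% interval −0.76 to −0.05, adjusted p = 0.0654). Neither is a call, and neither shows that Smo stayed at its untreated level. Against Ki67- nests the result lay near the threshold: it was −0.47 without vismodegib library 2 (adjusted p = 0.0491), −0.49 without vismodegib library 3 (adjusted p = 0.0443) and −0.51 without Ki67- library 4 (adjusted p = 0.0173), all from the same edgeR test.

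Kif7, a kinesin that organises the cilium tip and acts on the Gli proteins there, reached 6.32, 15.7, 19.5, 16.2 and 14.5 CPM in vismodegib libraries 1 to 5, against 55.5, 67.7, 62.4, 29.4 and 22.3 CPM in Ki67- libraries and 43.6, 95.2, 56.0, 62.4 and 51.8 CPM in Ki67+ libraries. Every vismodegib library lay below every untreated one, with library 1 lowest, and the closest untreated library was Ki67- library 5. The vismodegib values rest on 41 to 197 counts per library. The log2 fold change was −2.09 against Ki67+ nests (SE 0.329, edgeR adjusted p = 0.00014) and −1.71 against Ki67- nests (SE 0.326, adjusted p = 0.000712). Against Ki67+ nests, 3.86% of all genes tested had a lower log2 fold change than Kif7. Ticrr, a DNA replication gene that overlaps Kif7 by 51 exonic bases, was lower than in Ki67+ nests (log2 fold change −0.75, adjusted p = 0.0109) and had a log2 fold change of 0.51 against Ki67- nests (adjusted p = 0.0671), where Kif7 fell.

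Sufu, the negative regulator that holds the Gli proteins in the cytoplasm, reached 29.0, 29.9, 35.0, 24.4 and 28.6 CPM in vismodegib libraries 1 to 5, against 44.2, 34.6, 39.0, 38.8 and 61.3 CPM in Ki67- libraries and 46.1, 42.5, 41.8, 41.3 and 34.0 CPM in Ki67+ libraries. Vismodegib library 3, the highest of its group, lay just above Ki67- library 2 and Ki67+ library 5, so the groups overlapped by 1 library on each side. The log2 fold change was −0.48 against Ki67+ nests (SE 0.166, edgeR adjusted p = 0.0385) and −0.57 against Ki67- nests (SE 0.166, adjusted p = 0.0145).

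The call of Sufu against Ki67+ nests was near the threshold and was lost when any of 8 single libraries was left out, while its direction was kept. The log2 fold change was then −0.47, −0.49, −0.42 and −0.47 without vismodegib libraries 1, 2, 4 and 5 (edgeR adjusted p = 0.0763, 0.0583, 0.0942 and 0.076). It was −0.44, −0.47, −0.48 and −0.48 without Ki67+ libraries 1, 2, 3 and 4 (adjusted p = 0.0813, 0.0724, 0.0678 and 0.0675). The fall against Ki67- nests kept its call with any 1 library left out.

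Gli2, in mouse the main activator among the Gli proteins, reached 68.0, 234, 209, 147 and 51.3 CPM in vismodegib libraries 1 to 5, against 458, 489, 406, 303 and 600 CPM in Ki67- libraries and 249, 446, 369, 390 and 276 CPM in Ki67+ libraries. All vismodegib libraries lay below all untreated ones, and libraries 1 and 5 stood well below the other 3 of their group. The log2 fold change was −1.28 against Ki67+ nests (SE 0.351, 95% interval −2.05 to −0.52, edgeR adjusted p = 0.0132) and −1.67 against Ki67- nests (SE 0.355, adjusted p = 0.00224). The SE is more than that of Smo, Sufu and Gli3, with a group mean of 142 ± 81.7 CPM in vismodegib nests, against 451 ± 109 CPM in Ki67- nests and 346 ± 81.9 CPM in Ki67+ nests (SD, n = 5 each). Vismodegib libraries 1 and 5 were also the lowest of all for Gli1, at 28.8 and 21.0 CPM beside 126, 112 and 89.6 CPM in vismodegib libraries 2, 3 and 4, and for Ptch1, at 147.5 and 142 CPM beside 876, 664 and 923 CPM.

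Gli3, in mouse mainly a repressor, reached 93.1, 123, 102, 117 and 112 CPM in vismodegib libraries 1 to 5, against 192.5, 199, 202, 178.5 and 168 CPM in Ki67- libraries and 114, 191, 174, 152 and 154 CPM in Ki67+ libraries. Vismodegib libraries all lay below the Ki67- ones, and overlapped the Ki67+ ones only through Ki67+ library 1. The log2 fold change was −0.52 against Ki67+ nests (SE 0.134, edgeR adjusted p = 0.00737) and −0.78 against Ki67- nests (SE 0.134, adjusted p = 0.000257). Gm6556, the antisense transcript that shares 1.96% of Gli3's exonic bases, was also lower, at 4.48 ± 0.828 CPM in vismodegib nests against 9.6 ± 3.19 CPM in Ki67+ nests (SD, n = 5 each, log2 fold change −1.10, edgeR adjusted p = 0.0304). With the 5 libraries in which Xist exceeded Ddx3y left out, which leaves 2 vismodegib libraries, Gli3's log2 fold change against Ki67+ nests was −0.46 (adjusted p = 0.142), and Kif7 and Gli2 kept their calls at −2.06 (adjusted p = 0.0032) and −1.87 (adjusted p = 0.00786). In the same libraries Sufu kept its call against Ki67+ nests, at −0.69 (adjusted p = 0.0281), and lost it against Ki67- nests, at −0.56 (adjusted p = 0.0637).

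Counted by overlap, 2 of the 5 genes, Gli2 and Kif7, had every vismodegib library below every Ki67+ library, where 10.1% of all genes did. Against Ki67- libraries there were 3, Gli2, Gli3 and Kif7, where 10.2% of all genes did. The median log2 fold change of the 5 genes was −0.52 against Ki67+ nests and −0.78 against Ki67- nests, and that of all genes tested was −0.02 and −0.03.

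**Figure D2:**
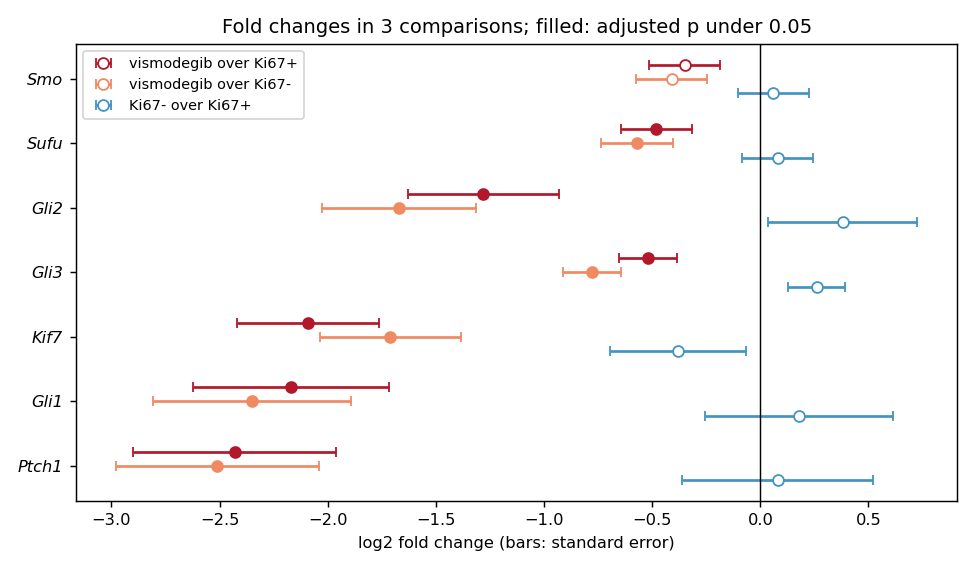
Log2 fold changes of the 5 transducers, with Gli1 and Ptch1 for scale, in the 3 comparisons (bars are standard errors, filled points passed an adjusted p under 0.05 in the edgeR test). Kif7 at −2.09 and Gli2 at −1.28 against Ki67+ nests lie far left of Smo at −0.35, and no point for Ki67- over Ki67+ is filled.

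Among untreated nests, no member passed the test between Ki67- and Ki67+ libraries. In this comparison 0 of 5 members were called by edgeR, DESeq2 or limma voom, 0 had an unadjusted p under 0.05 in edgeR, and 0.174% of all genes were called. The group means were 70.4 ± 14.5 CPM in Ki67- nests and 67.7 ± 6.34 CPM in Ki67+ nests for Smo (SD, n = 5 each), with a log2 fold change of 0.06 and a 95% interval of −0.30 to 0.41. Sufu averaged 43.6 ± 10.5 CPM in Ki67- nests and 41.1 ± 4.41 CPM in Ki67+ nests, with a log2 fold change of 0.08 (95% interval −0.28 to 0.44). The direction for Smo and Sufu turned when Ki67- library 5 was left out, to −0.02 and −0.07. That library had 19669 genes with a count, against 21653 to 23322 in the 14 others.

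The Gli factors averaged higher and Kif7 lower in Ki67- nests, within the spread of the libraries. Gli2 averaged 451 ± 109 CPM in Ki67- nests and 346 ± 81.9 CPM in Ki67+ nests (SD, n = 5 each), with a log2 fold change of 0.38 and a 95% interval of −0.37 to 1.14. Gli3 averaged 188 ± 14.5 CPM in Ki67- nests and 157 ± 28.8 CPM in Ki67+ nests, with a log2 fold change of 0.26 (95% interval −0.03 to 0.55). Kif7 averaged 47.5 ± 20.4 CPM in Ki67- nests and 61.8 ± 19.9 CPM in Ki67+ nests, with a log2 fold change of −0.38 (95% interval −1.06 to 0.30). The intervals do not show that the groups are alike, least of all for Gli2 and Kif7.

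Levels of different genes can be set side by side per length of transcript, in the authors' deposited size-factor-scaled RPKM values (nRPKM). In untreated nests Gli2 was the most abundant of the 5 transducers, at 14.1 ± 3.49 nRPKM in Ki67- nests and 10.7 ± 2.54 nRPKM in Ki67+ nests (SD, n = 5 each), and it was highest in each of the 10 libraries. Gli3 followed at 6.08 ± 0.482 nRPKM in Ki67- nests and 5.05 ± 0.938 nRPKM in Ki67+ nests, and Smo at 4.45 ± 0.925 nRPKM in Ki67- nests and 4.25 ± 0.422 nRPKM in Ki67+ nests. By group mean Sufu and Kif7 came last and did not keep an order: Kif7 was above Sufu in 3 of 5 Ki67- libraries and 4 of 5 Ki67+ libraries. The order of the means did not hold in every library. In Ki67+ library 1 Smo at 3.75 nRPKM was above Gli3 at 3.65 nRPKM. In Ki67+ library 2 Kif7 at 4.95 nRPKM was above Smo at 4.7 nRPKM. Sufu averaged 2.68 ± 0.672 nRPKM in Ki67- nests and 2.51 ± 0.261 nRPKM in Ki67+ nests, and Kif7 averaged 2.46 ± 1.06 nRPKM in Ki67- nests and 3.19 ± 1.04 nRPKM in Ki67+ nests.

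In vismodegib nests the top of that order was no longer held by Gli2 alone and the bottom was held by Kif7 in every library. Gli2 was 2.07, 7.13, 6.39, 4.58 and 1.56 nRPKM in vismodegib libraries 1 to 5, and Gli3 was 2.94, 3.9, 3.24, 3.79 and 3.53 nRPKM. Gli2 was highest in libraries 2, 3 and 4, and Gli3 in libraries 1 and 5. The group means were 4.35 ± 2.5 nRPKM for Gli2, 3.48 ± 0.396 nRPKM for Gli3 and 3.3 ± 0.598 nRPKM for Smo (SD, n = 5 each). Differences between these means were not tested. Within libraries, Gli3 was above Smo in 4 of 5 vismodegib libraries and Gli2 was above Smo in 3 of 5. Sufu averaged 1.78 ± 0.219 nRPKM, and Kif7 averaged 0.737 ± 0.251 nRPKM and was lowest in 5 of 5 libraries. Gli1, the target gene that is itself a Gli factor, averaged 5.66 ± 3.6 nRPKM in vismodegib nests, 29.3 ± 10.1 nRPKM in Ki67- nests and 25.7 ± 10.1 nRPKM in Ki67+ nests.

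**Figure D3:**
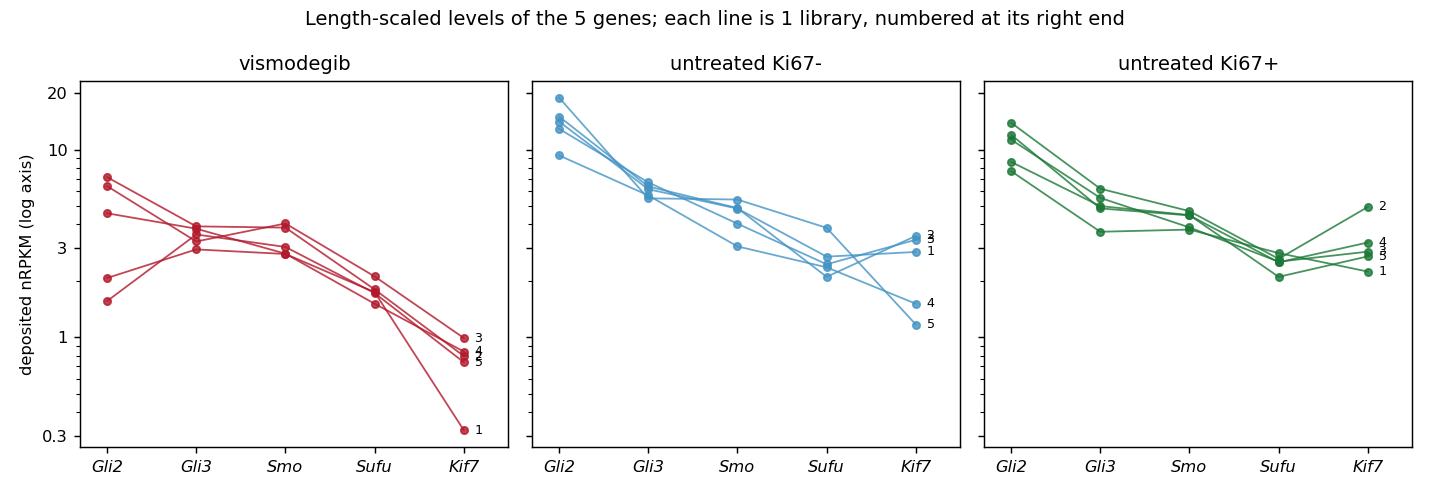
Length-scaled levels (nRPKM, log axis) of the 5 transducers in each library, with 1 line per library numbered at its right end. Gli2 tops every untreated line, while Gli2 is below Gli3 in vismodegib libraries 1 and 5 and Kif7 ends every vismodegib line at the bottom.

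Whether 2 members changed by different amounts was tested on the log2 ratio of their counts within each library, which needs no scaling between libraries. The 10 pairs in 3 comparisons gave 30 exact two-sided permutation tests, whose smallest possible p is 0.00794 with 5 libraries against 5, and a pair was called at a Benjamini-Hochberg adjusted p under 0.05 over the 30. Against Ki67+ nests 4 of 10 pairs were called, each at the smallest p (adjusted p = 0.0476). Kif7 fell further than Smo, with a log2 ratio of Smo to Kif7 of 2.82, 1.98, 1.74, 1.45 and 1.75 in vismodegib libraries 1 to 5, against 0.46, −0.36, 0.15, 0.20 and 0.45 in Ki67+ libraries. All vismodegib ratios lay above all Ki67+ ratios, and the difference of means was 1.77.

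Kif7 also fell further than Sufu and than Gli3 against Ki67+ nests. The log2 ratio of Sufu to Kif7 averaged 1.10 ± 0.62 in vismodegib nests and −0.54 ± 0.45 in Ki67+ nests (SD, n = 5 each), a difference of 1.65. The log2 ratio of Gli3 to Kif7 averaged 3.0 ± 0.54 in vismodegib nests and 1.38 ± 0.25 in Ki67+ nests, a difference of 1.63. Against Ki67- nests, where Ki67- library 5 had a Smo to Kif7 ratio of 1.92 within the vismodegib range, no pair with Kif7 was called.

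Gli2 fell further than Smo in both comparisons. The log2 ratio of Smo to Gli2 was −0.59, −1.91, −1.68, −1.73 and −0.06 in vismodegib libraries 1 to 5, against −2.56, −2.64, −2.70, −2.63 and −2.82 in Ki67- libraries and −2.05, −2.58, −2.57, −2.45 and −1.96 in Ki67+ libraries. The vismodegib ratios lay above all untreated ones, by 1.47 on average over Ki67- nests and 1.13 over Ki67+ nests (exact permutation test, adjusted p = 0.0476 for each). In Ki67- nests this ratio varied little, with an SD of 0.10, so Smo and Gli2 kept nearly 1 ratio across those libraries.

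The 2 Gli factors could not be told apart by this test. The log2 ratio of Gli2 to Gli3 averaged 0.14 ± 0.92 in vismodegib nests and 1.13 ± 0.19 in Ki67+ nests (SD, n = 5 each), a difference of −0.98 (exact permutation p = 0.0317, adjusted p = 0.0866), and the difference from Ki67- nests was −1.09 (exact p = 0.0397, adjusted p = 0.0992). Vismodegib libraries 1 and 5 had ratios of −0.45 and −1.12, below all others, and libraries 2 and 3 at 0.92 and 1.03 lay among the untreated ones. Between Ki67- and Ki67+ nests 0 of 10 pairs were called, 3 had an unadjusted exact p under 0.05, and the rank statistic in place of the mean also called 0.

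All 5 pair calls sit at the smallest p that the design allows and pass the adjustment over 30 tests because 5 pairs tie there. Leaving out 1 library breaks these ties or raises the smallest exact p to 0.0159, so the 0 pairs called in those runs say nothing about stability. Every called difference kept its direction in them.

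**Figure D4:**
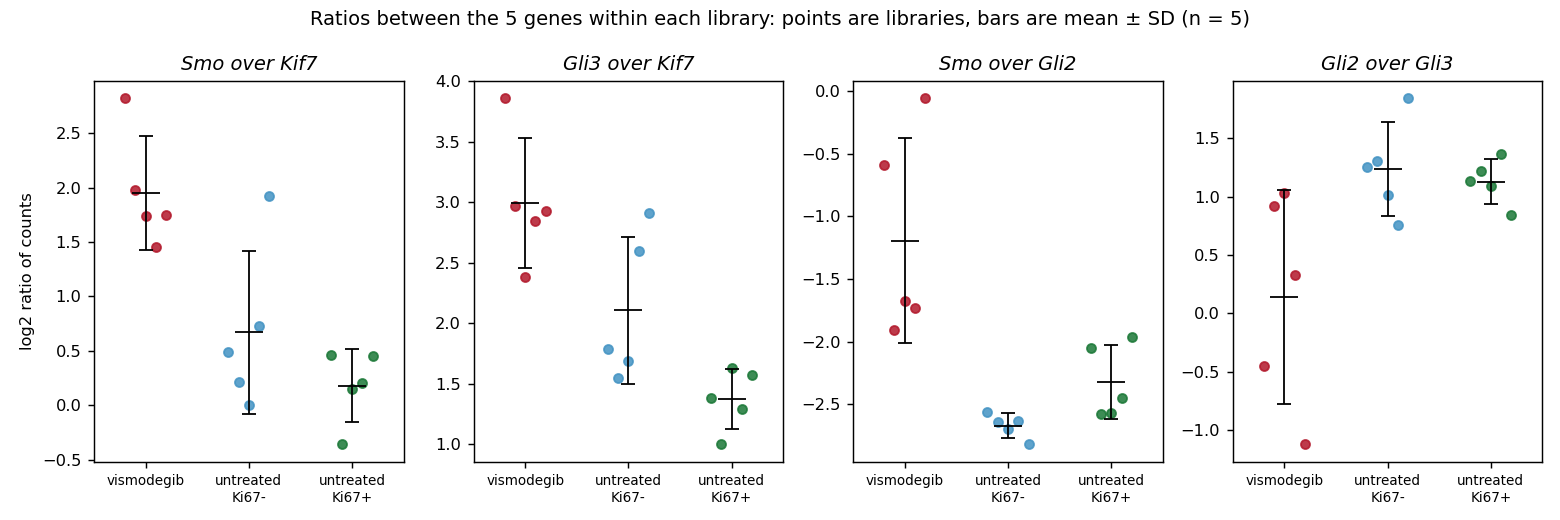
Log2 ratios of counts between members within each library (points) with the mean and SD of each group of 5 (bars). The vismodegib points lie above all Ki67+ points for Smo over Kif7, Gli3 over Kif7 and Smo over Gli2, while Gli2 over Gli3 overlaps.

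The other genes of the pathway were listed by role, 73 genes in all, of which 72 were in the files and 62 were tested. Against Ki67+ nests 21 fell, 6 rose and 35 did not pass the test, where 26.0% of all genes were called, 13.4% lower and 12.6% higher. Against Ki67- nests 23 fell, 6 rose and 33 did not pass, where 31.9% of all genes were called, 16.5% lower and 15.4% higher. Their median log2 fold change was −0.35 against Ki67+ nests and −0.34 against Ki67- nests. Between Ki67- and Ki67+ nests edgeR called 0 of 62, where it called 0.174% of all genes, so the 0 says little about pathway genes. DESeq2 called 1 of them, and 2 had an unadjusted p under 0.05 in edgeR. A gene in 2 of the lists, such as Gli1 or Ptch1, counts once in these totals. The counts of each list that follows are to be read against the shares over all genes given above.

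Upstream of Smo, Hhip, an antagonist that is also a Hedgehog target, had the lowest log2 fold change of all lists. Of 6 receptors tested, 4 fell and 1 rose in each vismodegib comparison. Hhip binds Hedgehog ligands, and its messenger RNA averaged 13.2 ± 9.93 CPM in vismodegib nests, 628 ± 132 CPM in Ki67- nests and 621 ± 236 CPM in Ki67+ nests (SD, n = 5 each). Its log2 fold change was −5.54 against Ki67+ nests (edgeR adjusted p = 1.09e-06). Boc, a co-receptor, fell by 0.58 on the log2 scale (adjusted p = 0.00966). Cdon, a co-receptor related to Boc, moved the other way, at 175 ± 31.2 CPM in vismodegib nests against 63.8 ± 20.5 CPM in Ki67+ nests (log2 fold change 1.45, adjusted p = 0.000217). Gas1, another co-receptor, had a log2 fold change of −0.35 against Ki67+ nests and −0.01 against Ki67- nests and passed neither test.

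Among ligands and release factors, 2 fell and 1 rose of 5 tested. Scube2 and Scube3 encode secreted relatives that help release lipid-modified ligand, and they moved in opposite directions. Scube2 averaged 27.5 ± 9.26 CPM in vismodegib nests and 8.42 ± 7.13 CPM in Ki67+ nests (SD, n = 5 each, log2 fold change 1.71, edgeR adjusted p = 0.0481). Scube3 averaged 4.04 ± 1.89 CPM in vismodegib nests and 21.8 ± 6.24 CPM in Ki67+ nests (log2 fold change −2.42, adjusted p = 5.45e-05). The ligand gene Dhh had 5 counts in all vismodegib libraries together, against 139 in Ki67- libraries and 166 in Ki67+ libraries. All 5 vismodegib counts lay in 1 library. Scaled for depth, that was 0.0257 of the Ki67+ level, with a 95% interval for counting error of 0.00825 to 0.0613. That interval leaves out the spread between libraries. Dhh averaged 0.131 ± 0.293 CPM in vismodegib nests, 4.37 ± 2.73 CPM in Ki67- nests and 4.38 ± 3.19 CPM in Ki67+ nests. Its vismodegib and Ki67- libraries overlapped. Shh and Ihh did not pass the filter on low counts.

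At the level of Smo, the genes that regulate it moved little except for a few. Of 9 tested, 2 fell and 1 rose against Ki67+ nests. Evc2, a ciliary partner of active Smo, fell by 0.82 on the log2 scale and Iqce, which anchors that complex, by 0.94 (edgeR adjusted p = 0.00392 and 0.00536). Arrb1, a beta-arrestin, averaged 61.1 ± 22.2 CPM in vismodegib nests and 25.4 ± 8.33 CPM in Ki67+ nests (SD, n = 5 each, log2 fold change 1.27, adjusted p = 0.00409).

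At the level of the Gli proteins, 3 genes of 17 kinase and turnover genes fell and 1 rose in each vismodegib comparison. Over all genes tested, 13.4% fell and 12.6% rose against Ki67+ nests, and 16.5% fell and 15.4% rose against Ki67- nests. Stk36, the mouse relative of the fly kinase fused, averaged 2.34 ± 1.46 CPM in vismodegib nests and 9.98 ± 2.94 CPM in Ki67+ nests (SD, n = 5 each, log2 fold change −2.08, edgeR adjusted p = 0.000486). Ulk3, another kinase of the Gli proteins, fell by 0.81 (adjusted p = 0.00874) and Tulp3, which carries receptors into the cilium, by 0.58 (adjusted p = 0.0285). Cul3, the scaffold of the ligase that degrades Gli proteins, rose by 0.37 against Ki67+ nests (adjusted p = 0.0347). The protein kinase A catalytic subunit Prkaca and the receptor Gpr161, which raises protein kinase A activity at the cilium, had log2 fold changes of 0.24 and −0.10 and did not pass.

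Genes of the cilium, where Smo, Kif7 and the Gli proteins meet, fell or did not pass the test. In each vismodegib comparison 5 of 12 fell and 0 rose, and the list's median log2 fold change was −0.42 against Ki67+ nests and −0.50 against Ki67- nests. Ift57, an intraflagellar transport protein, averaged 12.6 ± 2.47 CPM in vismodegib nests and 33.4 ± 7.97 CPM in Ki67+ nests (SD, n = 5 each, log2 fold change −1.40, edgeR adjusted p = 0.000103). Dync2h1, the motor for the return journey from the tip, fell by 0.93 (adjusted p = 0.00021), and Ift122, another transport protein, by 1.04 (adjusted p = 0.00334). Among 4 kinesin relatives of Kif7, Kif27, its closest paralog, fell by 1.77 (adjusted p = 0.00895) at a low level, 1.53 ± 0.605 CPM in vismodegib nests against 5.22 ± 0.974 CPM in Ki67+ nests. Kif21a rose by 0.73 against Ki67+ nests (adjusted p = 0.0173).

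Downstream, 6 of 8 targets tested fell against Ki67+ nests and 5 against Ki67- nests, and 1 rose in each. Gli1 averaged 75.6 ± 48.1 CPM in vismodegib nests, 385 ± 127 CPM in Ki67- nests and 340 ± 131 CPM in Ki67+ nests (SD, n = 5 each), with a log2 fold change of −2.17 against Ki67+ nests (edgeR adjusted p = 0.00253). Ptch1 fell by 2.43 on the log2 scale (adjusted p = 0.00136), Mycn by 1.19 (adjusted p = 0.0365) and Bcl2 by 0.73 (adjusted p = 0.0239). Against Ki67- nests Mycn did not pass the test (log2 fold change −1.03, edgeR adjusted p = 0.0567). Ptch1 is also a gene that the Cre acts on in these mice, and RNA of recombined and intact alleles cannot be told apart in gene counts. Ccnd2, a cyclin, moved the other way at 413 ± 97.9 CPM in vismodegib nests against 125 ± 45.6 CPM in Ki67+ nests (log2 fold change 1.73, adjusted p = 0.000121). Of the zinc finger relatives of the Gli genes, 2 of 5 fell against Ki67+ nests, Gli1 and Glis2, and Glis2 averaged 11.5 ± 2.56 CPM in vismodegib nests against 33.1 ± 5.20 CPM in Ki67+ nests (log2 fold change −1.53, adjusted p = 2.78e-05).

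**Figure D5:**
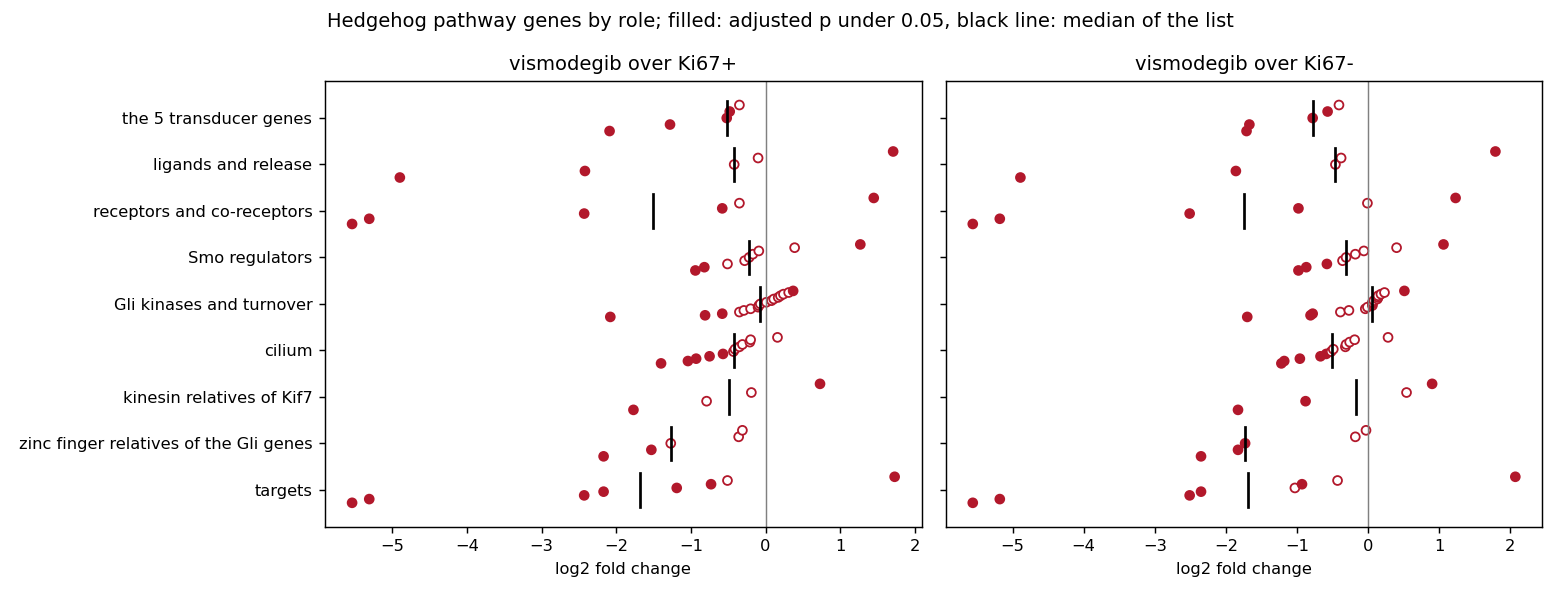
Log2 fold changes of Hedgehog pathway genes by role in vismodegib over Ki67+ nests (left) and over Ki67- nests (right), with points filled where the edgeR adjusted p is under 0.05 and a black line at each list's median. Against Ki67+ nests the median is −1.68 for the targets and −0.22 for the regulators of Smo, with Kif7 at −2.09 and Gli2 at −1.28. The point near −4.9 is Dhh, which rests on 5 counts, all in a single vismodegib library.

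Markers of several other cell types moved with treatment. Of 5 endothelial markers 0 were called in each vismodegib comparison, and of 5 myeloid markers 1 rose in each. Of all genes tested, 12.6% were higher and 13.4% lower than in Ki67+ nests. Against Ki67- nests 15.4% were higher and 16.5% lower. The summed level of 7 differentiated keratinocyte markers was 3137 to 3912 CPM in vismodegib nests, 118 to 256 CPM in Ki67- nests and 138 to 392 CPM in Ki67+ nests, and 7 of 7 rose against both. Dendritic and Langerhans markers summed to 707 to 2125 CPM in vismodegib nests, 115 to 423 CPM in Ki67- nests and 68.9 to 431 CPM in Ki67+ nests, with 5 of 5 higher than in Ki67+ nests. Fibroblast markers, of cells that also express Gli2 and Gli3, summed to 465 to 3716 CPM in vismodegib nests, 2734 to 5052 CPM in Ki67- nests and 1810 to 6281 CPM in Ki67+ nests, with 3 of 10 lower than in Ki67+ nests. Melanocyte markers summed to 54.6 to 322 CPM in vismodegib nests, 151 to 1144 CPM in Ki67- nests and 294 to 1462 CPM in Ki67+ nests, with 4 of 5 lower than in Ki67+ nests. Markers of T and NK cells summed to 62.4 to 161 CPM in vismodegib nests, 14.4 to 88.5 CPM in Ki67- nests and 16.04 to 50.4 CPM in Ki67+ nests, with 4 of 4 tested higher than in Ki67+ nests. Pericyte and smooth muscle markers summed to 36.3 to 54.0 CPM in vismodegib nests, 79.7 to 147 CPM in Ki67- nests and 62.3 to 130 CPM in Ki67+ nests, with 3 of 5 tested lower against each. No marker that matched a listed gene was at 0 in all 15 libraries together, and zeros within a single group were not looked for. With the mean log2 level of the fibroblast markers as a covariate, Gli2 and Kif7 kept their calls against Ki67+ nests, with log2 fold changes of −1.62 (edgeR adjusted p = 0.00743) and −2.19 (adjusted p = 0.00043). Sufu did not (−0.54, adjusted p = 0.0537). The fibroblast mean spanned 4.53 to 7.41 in vismodegib nests, 7.27 to 8.07 in Ki67- nests and 6.5 to 8.17 in Ki67+ nests. Because it differed with treatment, this fit cannot set apart the part of fibroblasts in the members' changes. The part of differentiated keratinocytes, dendritic cells, T and NK cells, melanocytes, pericytes and the other cell types was not tested.

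Over the 10 untreated libraries, levels of the members were set beside Gli1, a readout of pathway output, on the log2 CPM scale. Pearson's r was 0.69 for Smo (permutation p = 0.0271, Benjamini-Hochberg adjusted p = 0.0907 over 5 genes) and 0.67 for Gli2 (permutation p = 0.0363, adjusted p = 0.0907). Spearman's rho was 0.65 for Smo (permutation p = 0.0489, adjusted p = 0.203) and 0.59 for Gli2 (permutation p = 0.0811, adjusted p = 0.203). For Gli3, Sufu and Kif7 r was 0.41, 0.29 and 0.06 (permutation p = 0.25, 0.424 and 0.87) and rho 0.27, 0.02 and 0.20 (permutation p = 0.45, 0.974 and 0.585). No relation passed the correction. Without Ki67- library 5 and Ki67+ library 2, the farthest from the median of Gli1, r was 0.56 for Smo, 0.43 for Gli2, 0.49 for Gli3, −0.61 for Sufu and 0.57 for Kif7. With group means removed first, r was 0.69 for Smo and 0.66 for Gli2, and 5 libraries are too few for a value within 1 group.

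The genes whose profile over the 15 libraries was most like each member were found by the root mean square difference between log2 CPM profiles, each centred on its own mean, among 10357 named genes. For Kif7 they were Galm, Rasgef1b and Bag3, at 0.447, 0.453 and 0.453. For Gli2 they were Zfp566, Pygb and Sh3bp4, at 0.373, 0.385 and 0.39. The less variable members had closer matches: Rbak, Prrc2b and Fat1 for Smo at 0.147 to 0.158, Rcl1, Psme3 and Polr3d for Sufu at 0.127 to 0.155, and Rnf169, Iqsec1 and Med23 for Gli3 at 0.165 to 0.179.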

How the data were processed

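Polyadenylated RNA of 15 laser-captured tumour nest samples was measured. Reads were aligned with GSNAP to GRCm38, per the submitters' processing notes. Aligner version, annotation release and strand setting were not given in the sources used here. The deposited counts are reads aligned uniquely to each gene, per the file headers. The deposited nRPKM values are RPKM divided by a size factor, per the file headers. For the members, every value was its count multiplied by 1 factor per gene and 1 per library. Other genes were not checked for this. Of 36528 NCBI identifiers 31049 (85.0%) matched a symbol in RefSeq GRCm38.p6, and the 5479 others, with 2.258% to 3.934% of counts, stayed in the fit unnamed. Within groups, library pairs had a chi-square over degrees of freedom of 14.33 to 46.8, and none was taken for a duplicate.

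Libraries were scaled by TMM (factors 0.937 to 1.05) and genes kept by filterByExpr (minimum count 10, minimum total 15). Genes were tested in R 4.3.3 with edgeR 4.0.16 (quasi-likelihood F, robust dispersion), fitted over all 15 libraries (12 residual degrees of freedom, common biological coefficient of variation 0.348), two-sided, with Benjamini-Hochberg adjustment over 17282 genes and calls under 0.05. CPM use the TMM-scaled library size. Intervals of fold changes are 95% intervals from the SE and the t distribution with 12 degrees of freedom. The edgeR test uses more degrees of freedom, shared across genes, so these intervals are slightly wider than the test's own would be. The SE is the log2 fold change over the square root of F. Ratios used counts plus 0.5, and relations to Gli1 used 100000 resamples. The script was tested on simulated data. Alternatives were other scalings, filters, DESeq2 1.42.0, limma 3.58.1 voom, covariates, other groups in the fit, non-robust dispersion and leaving out each library. Leaving out all libraries with Xist above Ddx3y was chosen after seeing the data. Libraries were numbered in accession order within a group, and the numbers pair nothing.

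The members and gene lists were chosen with earlier results of these data known. Genes named are the members, Gli1, Ptch1, up to 2 called genes of smallest adjusted p per list, direction and comparison, and the 3 most alike named genes per member (average log2 CPM at least 3). Boc, Gas1, Mycn, Bcl2, Tulp3, Ift122, Prkaca, Gpr161, Shh, Ihh, Ticrr and Gm6556 are named beyond that rule, for their role or overlap or after their values were seen. Intervals on count ratios cover counting error only.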

Additional observations from a re-analysis of the deposited data

Results flagged for a closer look

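Of 51 groups of 5 library values looked at, 1 had a library that stood apart by Dixon's test, in which the gap to the nearest library is set against the group's range with a critical value of 0.71. The log2 ratio of Sufu to Kif7 was 2.18 in vismodegib library 1, against 0.59 to 0.97 in vismodegib libraries 2 to 5. That library had the lowest Kif7 level of all 15, at 6.32 CPM and 41 counts, with Sufu at 29.0 CPM in the middle of its group. Chance flags about 1 in 20 groups.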

How the results depend on the processing

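No paired analysis was possible because the labels give no replicate numbers. The calls of Kif7, Gli2 and Gli3 in both vismodegib comparisons were kept in all runs that left out 1 library and under all other settings run, except Gli3 in the libraries with Xist below Ddx3y. Leaving out 1 library gave log2 fold changes of −2.22 to −1.88 for Kif7 and −1.54 to −1.07 for Gli2 against Ki67+ nests. Smo against Ki67- nests ranged from −0.51 to −0.33 in those runs, and passed the edgeR threshold under upper quartile scaling (−0.44, adjusted p = 0.0491) and with Xist as a covariate (−0.51, adjusted p = 0.0263). Sufu against Ki67+ nests ranged from −0.56 to −0.42, and lost its call with no filter (−0.48, adjusted p = 0.0727) and with the fibroblast covariate (−0.54, adjusted p = 0.0537). With only Xist-low libraries, 2815 genes were called against Ki67+ nests and 3024 against Ki67- nests, 13 of them pathway genes in each, from fewer libraries, Gli3 was at −0.46 (adjusted p = 0.142) and Sufu at −0.56 against Ki67- nests (adjusted p = 0.0637). The cause of these changes was not tested.

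Between Ki67- and Ki67+ nests, 30 genes were called by edgeR, 88 by DESeq2 (1 of them a pathway gene), 15 by limma voom, 0 with only those groups in the fit and 0 in Xist-low libraries. Leaving out 1 library gave 0 to 43 genes: 0 without Ki67- library 3, 4 or 5 or Ki67+ library 4, 2 without Ki67+ library 5 and 12 without Ki67- library 2. In this comparison Smo ranged from −0.02 to 0.17 and Sufu from −0.07 to 0.16 without 1 library, and Sufu was −0.13 in Xist-low libraries. Pairs called against Ki67+ and Ki67- nests numbered 4 and 1 with an added count of 2 or ranks, and 0 to 0 without 1 library, where the ties that carry the calls are broken. Uncalled ratios changed sign there: Sufu to Gli3 against Ki67+ nests (−0.07 to 0.17), Gli2 to Kif7 in vismodegib over Ki67- nests (−0.38 to 0.16), and, in Ki67- over Ki67+ nests, Smo to Sufu (−0.15 to 0.06) and Gli2 to Gli3 (−0.05 to 0.22). The lowest count behind a member's value was 41, for Kif7 in 1 vismodegib library.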
